A study of Mus musculus with 9 samples.

Results

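DNA replication and S-phase genes are the genes whose products license replication origins, unwind and copy the DNA, supply nucleotides and rebuild chromatin behind the fork. A list of 49 gene symbols was matched to the gene names of the deposited FPKM table, and 49 of 49 were found among its 54532 genes. Poly-A RNA was sequenced from M-MDSCs (monocytic myeloid-derived suppressor cells), which resemble monocytes and dampen T cell responses. They had been sorted from tumours grown from MC38 cells, a colon carcinoma line of the mouse. The 9 libraries formed 3 groups of 3. The SCG2 knockout libraries came from LILRB4+/+ SCG2-/- mice, the LILRB4 libraries from LILRB4+/+ mice and the WT libraries from WT mice, and every mouse bore an MC38 tumour. The SCG2 knockout mice therefore carried the LILRB4 genotype as well. Neither the LILRB4 allele nor the sorting gate nor the mouse behind each library is given in the labels. All p-values therefore measure the spread between these libraries, and that spread may be technical.

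Cells replicate their DNA in S phase of the cell cycle. In G1 the origin recognition complex with Cdc6 and Cdt1 loads the ring-shaped MCM helicase onto origins, and at the start of S phase the kinase Cdc7 with its activator Dbf4, together with Cdc45 and the GINS complex, turns the ring into a moving helicase. Many genes of this machinery are switched on together in late G1 by E2F transcription factors. Cyclin-dependent kinases first release these factors from the retinoblastoma protein. The mRNA levels of the genes are therefore often read as a measure of how many cells in a population are cycling.

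The promoter sequences are shown for the letters of the E2F site. Many genes of this machinery are known to be switched on by E2F factors, so a high share of these letters is not an independent result. RefSeq promoter windows on GRCm38.p6, from 250 bases before to 50 bases after each start, were found for 41 of the 49 genes, in 48 windows. The letters TTTCCCGC or TTTGGCGC, read on both strands (GCGGGAAA and GCGCCAAA on the other strand), were present in 12 of these windows (25.0%), which belong to 12 genes. The same letters were present in 514 of 32851 windows of all genes (1.56%). Each match is shown on the strand of its gene, 5′ to 3′, with the E2F letters in capitals and up to 10 bases on each side.
Cdc6, chr11:98908003-98908030, plus strand: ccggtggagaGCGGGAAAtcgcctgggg
Cdt1, chr8:122568037-122568064, plus strand: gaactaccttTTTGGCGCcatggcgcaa
Gins3, chr8:95633508-95633535, plus strand: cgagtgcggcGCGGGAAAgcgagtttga
Mcm3, chr1:20820276-20820303, minus strand: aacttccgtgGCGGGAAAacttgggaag
Mcm3, chr1:20820263-20820284, minus strand: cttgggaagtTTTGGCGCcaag
Mcm5, chr8:75109350-75109377, plus strand: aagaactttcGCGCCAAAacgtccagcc
Mcm6, chr1:128359798-128359825, minus strand: ggcgtatgctTTTGGCGCgaaaagtgcg
Mcm6, chr1:128359735-128359762, minus strand: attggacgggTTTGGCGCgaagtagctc
Mcm7, chr5:138172031-138172058, minus strand: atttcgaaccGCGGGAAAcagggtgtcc
Pola1, chrX:93632276-93632303, minus strand: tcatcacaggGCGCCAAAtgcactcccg
Pold1, chr7:44548766-44548786, minus strand: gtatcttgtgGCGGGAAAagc
Pold3, chr7:100121468-100121495, minus strand: agcgaagctgTTTCCCGCcggcgggagc
Pole2, chr12:69228163-69228190, minus strand: gtcggcggtgGCGCCAAAtcgcgaacat
Rfc3, chr5:151651191-151651218, minus strand: tttcgcgctcGCGGGAAAactctactgt

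The MCM helicase genes held 6 of these 14 stretches, in Mcm3, Mcm5, Mcm6 and Mcm7. Among the 4 genes that passed the test in the comparison of LILRB4 with WT (Mcm5, Rrm2, Tcf19 and Uhrf1), Mcm5 had a match, and the windows of Rrm2, Tcf19 and Uhrf1 held none of these letters. The whole windows of Mcm5 and Rrm2, which had the smallest p-values of the 4, are shown for comparison, with the match of Mcm5 in capitals, 149 bases before the start.
Mcm5, chr8:75109259-75109558, plus strand: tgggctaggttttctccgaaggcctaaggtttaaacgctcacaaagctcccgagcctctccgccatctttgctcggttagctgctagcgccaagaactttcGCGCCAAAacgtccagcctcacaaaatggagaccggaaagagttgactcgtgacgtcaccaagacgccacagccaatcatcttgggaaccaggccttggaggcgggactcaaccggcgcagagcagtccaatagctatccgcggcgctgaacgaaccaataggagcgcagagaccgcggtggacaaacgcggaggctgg
Rrm2, chr12:24708004-24708303, plus strand: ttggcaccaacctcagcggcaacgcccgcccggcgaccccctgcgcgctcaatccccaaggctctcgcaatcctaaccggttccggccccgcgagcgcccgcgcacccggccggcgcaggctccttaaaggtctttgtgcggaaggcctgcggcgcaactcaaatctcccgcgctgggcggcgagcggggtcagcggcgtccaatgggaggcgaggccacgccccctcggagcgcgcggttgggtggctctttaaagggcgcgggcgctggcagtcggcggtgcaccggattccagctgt

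**Figure D1:**
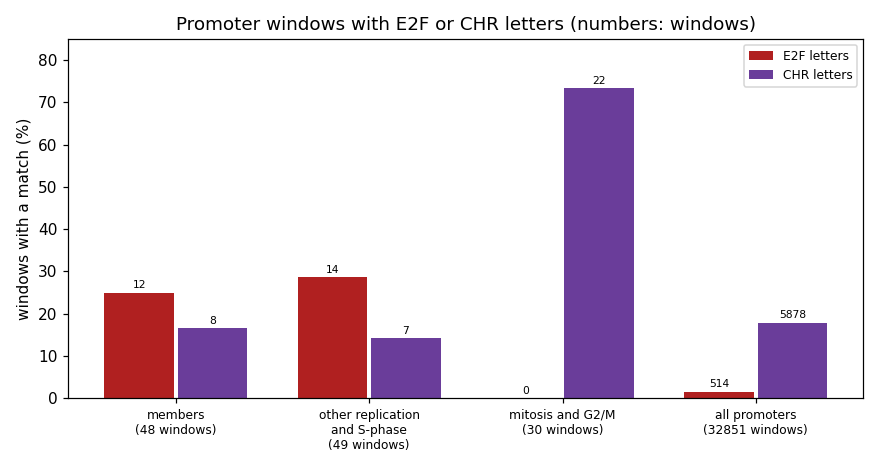
Share of promoter windows (percent) that hold the E2F letters or the CHR letters, by gene list. The lists are the DNA replication and S-phase genes (41 of 49 had a window), other replication genes (40 of 55), mitosis genes (29 of 35) and all genes. E2F letters were present in 25.0% of the windows of the 49 genes and in 0 of 30 windows of the mitosis genes, and CHR letters in 16.7% and 73.3%.

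A second motif, the cell cycle homology region (CHR), whose letters were searched as TTTGAA on both strands, is known from promoters of genes that peak in G2 and M phase. It was present in 8 of the 48 windows (16.7%), against 5878 of 32851 windows of all genes (17.9%). Mitosis genes, of which 29 of 35 had a window, had CHR letters in 22 of 30 windows (73.3%) and E2F letters in 0 of 30. Of 55 other replication genes, 40 had a window. E2F letters were present in 14 of their 49 windows (28.6%) and CHR letters in 7 (14.3%). No E2F and CHR letters overlapped in the 66 windows of all genes that held both. A match describes letters and is not a shown binding site, and a window without a match is not shown to lack one. The CHR stretch of the mitotic kinase gene Aurka is shown as an example, with the CHR letters in capitals.
Aurka, chr2:172370523-172370548, minus strand: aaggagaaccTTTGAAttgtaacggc

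The SCG2 knockout could not be checked with its own transcript, since Scg2 had 1 read in LILRB4 replicate 1, 1 in WT replicate 1 and 0 in the other 7 libraries. Lilrb4a, a mouse gene of the receptor named by the genotype, stood at 131, 146 and 157 FPKM in SCG2 knockout libraries, 274, 154 and 160 FPKM in LILRB4 libraries, and 138, 47.7 and 74.0 FPKM in WT libraries, and its near copy Lilr4b may share its reads. The count table summed to between 14501163 and 27219202 reads in each library. All 8 monocyte markers were detected in every library, with Cd14 between 756 and 2688 FPKM and Ly6c2 between 28.6 and 105 FPKM. Markers of other cell types were present too. The 7 epithelial markers summed to 34.2, 21.4 and 19.1 FPKM in SCG2 knockout, 22.8, 44.7 and 20.2 FPKM in LILRB4, and 27.4, 21.9 and 22.4 FPKM in WT libraries. Cdh1, an adhesion molecule, made up most of it at 16.3 to 43.9 FPKM, Epcam averaged 1.65 FPKM in SCG2 knockout, 1.12 FPKM in LILRB4 and 0.835 FPKM in WT libraries, and the keratins Krt8, Krt18, Krt19 and Krt20 stayed below 1 FPKM. The 8 neutrophil markers summed to 37.3, 26.2 and 22.5 FPKM in SCG2 knockout, 59.7, 201 and 85.9 FPKM in LILRB4, and 25.0, 57.2 and 24.8 FPKM in WT libraries. Retnlg led them at 15.2 to 154 FPKM, S100a9, S100a8 and Mmp8 reached 17.2, 13.9 and 10.4 FPKM, and Ly6g was at or near 0. Libraries differed in T and NK cell transcripts, whose 15 markers summed to 313, 541 and 503 FPKM in SCG2 knockout, 525, 86.6 and 453 FPKM in LILRB4, and 326, 91.7 and 114 FPKM in WT libraries.

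All 49 genes had reads in each of the 9 libraries, and bulk RNA does not show which cells these came from. FPKM, a read count scaled by transcript length and sequencing depth, compares genes of different length. Averaged over the 9 libraries, the highest level was that of Pcna at 129 FPKM, the sliding clamp that holds polymerases on DNA, followed by the helicase subunits Mcm6 at 44.3 FPKM and Mcm5 at 40.1 FPKM. The lowest were Fen1, the flap nuclease of the lagging strand, at 0.91 FPKM, and Orc1, the largest subunit of the origin recognition complex, at 1.77 FPKM. Of the exonic bases of Fen1, 84.2% overlap Tmem258 and Gm10143 on the other strand. The same holds for 67.3% of Gins2 with Gse1 and 52.5% of Chaf1a with Ubxn6. The strand setting of the counting is not given in the sources used here, so it is not known how reads in these shared bases were assigned. They may have been counted for either gene or left out, so the levels of these genes are uncertain.

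**Figure D2:**
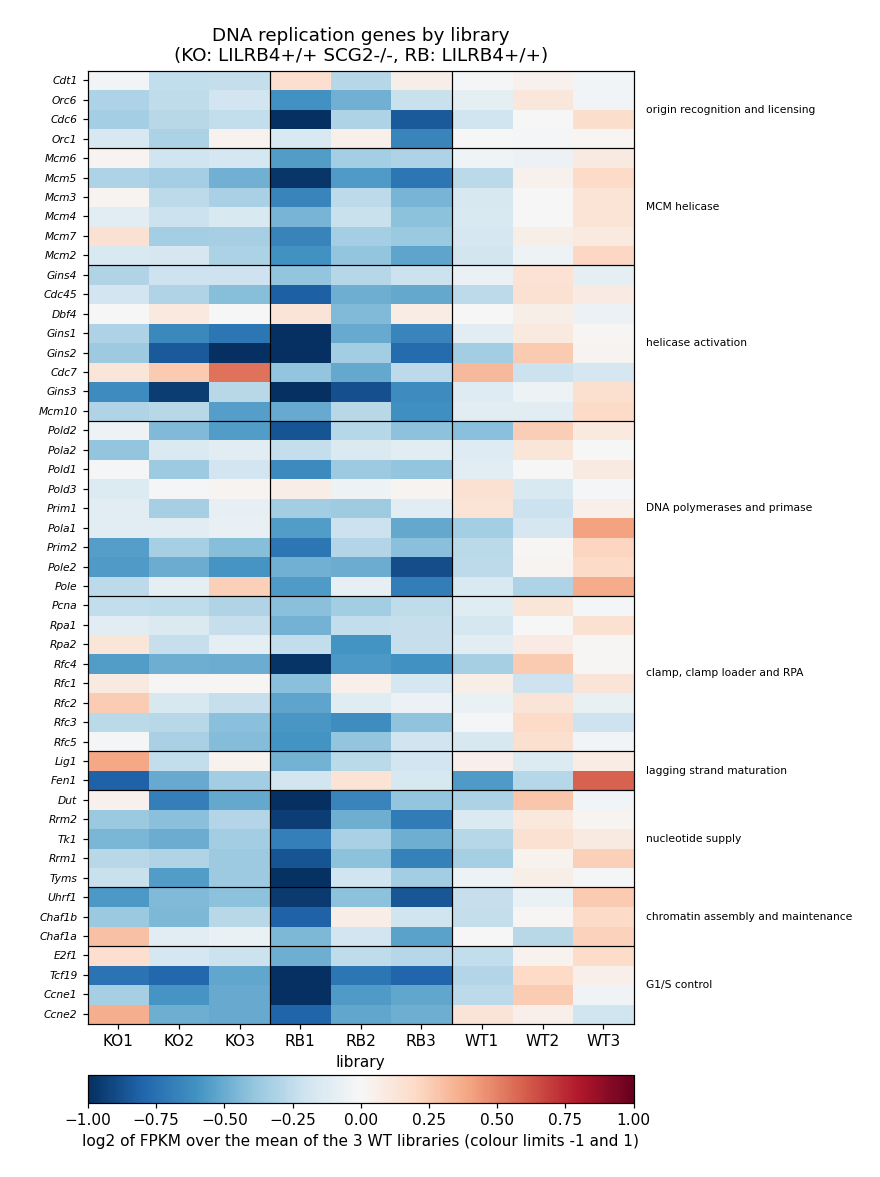
Log2 of FPKM over the mean of the 3 WT libraries for each of the 49 genes (rows, by role) in the 9 libraries (columns, SCG2 knockout, LILRB4 and WT from left to right). Colours stop at -1 and 1, and 7 values lie beyond, the lowest at -1.24. LILRB4 replicate 1 had the lowest value of all libraries for 35 of the 49 genes and the highest for 2. Among 10747 protein-coding genes with a mean of 1 FPKM or more, it was the lowest for 20.2% and the highest for 19.5%.

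The first question was whether the LILRB4 genotype goes with another level of these genes. DNA replication genes stood lower in LILRB4 than in WT libraries on the median, and the mean FPKM was lower for 48 of the 49 genes, Pold3 being the exception. A gene's level divided by its mean in WT had a median over the 49 genes of 0.659, 0.790 and 0.752 in LILRB4 replicates 1 to 3, against 0.901, 1.02 and 1.06 in WT replicates 1 to 3. All 3 LILRB4 values lay below all 3 WT values. The same held for the medians of 7 of the 9 roles, while lagging strand maturation and chromatin assembly overlapped. Over protein-coding genes with a WT mean of at least 1 FPKM, the same median was 0.946, 0.989 and 0.962 in LILRB4 and 0.964, 1.02 and 0.993 in WT. Summed over the 49 genes, the level was 579, 680 and 673 FPKM in LILRB4 and 786, 915 and 920 FPKM in WT libraries. For 35 of the 49 genes all LILRB4 libraries were below all WT libraries in FPKM. This non-overlap was found in 14.1% of 10747 protein-coding genes with a mean of 1 FPKM or more. It was found in the other direction for 0 of the 49 genes, against 11.6%. In bulk RNA, fewer cells in S phase and less of these mRNAs per cell cannot be told apart.

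The test was edgeR's quasi-likelihood test with Benjamini-Hochberg adjustment over all genes tested (threshold 0.05), called edgeR adjusted p here. On the deposited counts, which cover 43 of the 49 genes, 4 fell and 0 rose. The other 6 had fewer than 100 counts in LILRB4 replicate 1, and the lowest count of any gene of the deposited table there was 100. Of all 9877 genes tested, 0.516% fell and 1.73% rose. All 43 log2 fold changes were below 0, as were 52.0% of those of all genes, and their median was -0.46, against -0.02 over all genes. With no adjustment, 32 of the 43 were lower at p under 0.05 and 0 higher, against 11.3% of all genes in each direction. On counts recovered from FPKM, which cover all 49, 48 log2 fold changes were below 0 (50.2% over 15743 genes) with a median of -0.46, and 0 of the 49 genes passed the test, against 0.0572% of all genes lower and 0.813% higher. On recovered counts of the 9877 genes of the count table alone, 3 of the 43 passed (Mcm5, Rrm2 and Tcf19). The smallest edgeR adjusted p over the 15743 genes was 0.0532, for Tcf19, and Rrm2, Mcm5 and Uhrf1 followed at 0.0556, 0.0569 and 0.0765 among the genes that had passed. DESeq2 on the deposited counts called 15 of the 43 lower, and 0 higher, against 3.16% and 6.2% of all genes, so the direction was shared and the number of calls was not.

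**Figure D3:**
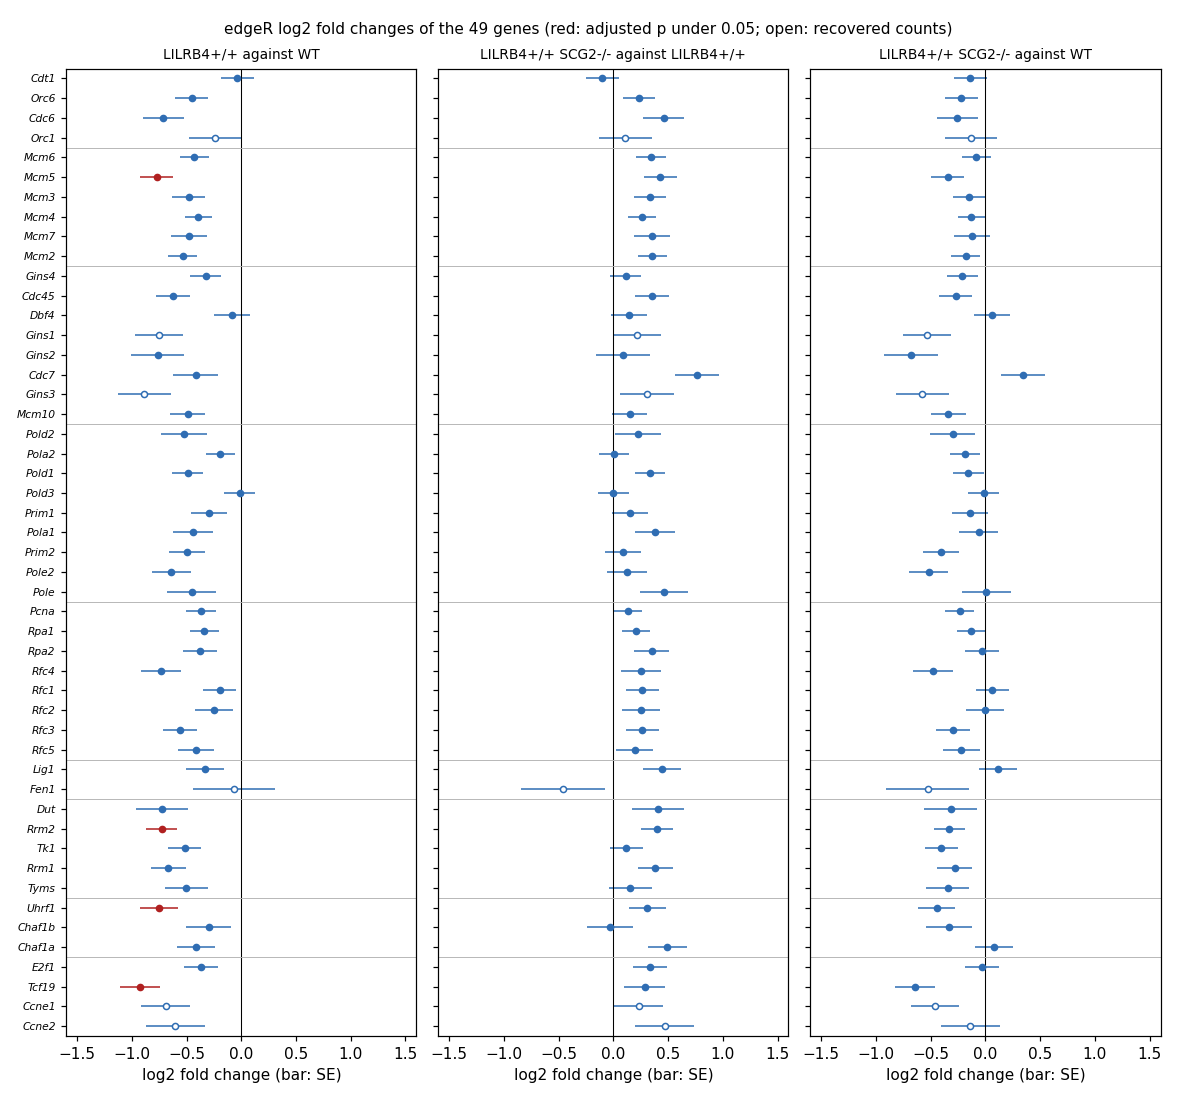
Log2 fold change of each DNA replication and S-phase gene with its standard error, in 3 panels (red, edgeR adjusted p under 0.05; open points, the 6 genes tested on recovered counts). The left panel sets LILRB4 against WT, and the middle and right panels set SCG2 knockout against LILRB4 and WT. In the left panel all 43 genes of the count table lie below 0, with a median of -0.46, in the middle panel 40 of 43 lie above 0, and in the right panel 37 of 43 lie below 0.

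The T and NK cell markers and the levels of the replication genes moved across libraries as follows, and the part of one in the other was not tested. LILRB4 replicate 1, with the lowest median level (0.659), had a T and NK cell sum of 525 FPKM, and WT replicates 2 and 3, with the highest (1.02 and 1.06), had 91.7 and 114 FPKM. LILRB4 replicate 2, at 86.6 FPKM of these markers, stood at a median level of 0.790, and WT replicate 1, at 326 FPKM, stood at 0.901. Sums of the 8 monocyte markers were 2252, 3412 and 2608 FPKM in LILRB4 and 1215, 3158 and 1962 FPKM in WT libraries, with overlapping ranges. The 7 macrophage markers summed to 513, 1021 and 594 FPKM in LILRB4 and 571, 936 and 671 FPKM in WT. The 8 fibroblast markers summed to 218, 173 and 236 FPKM in LILRB4 and 294, 210 and 249 FPKM in WT, and Fap was at or near 0 in every library. Of 10 marker lists, the neutrophil list was the 1 whose sums did not overlap, at 59.7, 201 and 85.9 FPKM in LILRB4 and 25.0, 57.2 and 24.8 FPKM in WT libraries. The part of these cells was not tested.

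**Figure D4:**
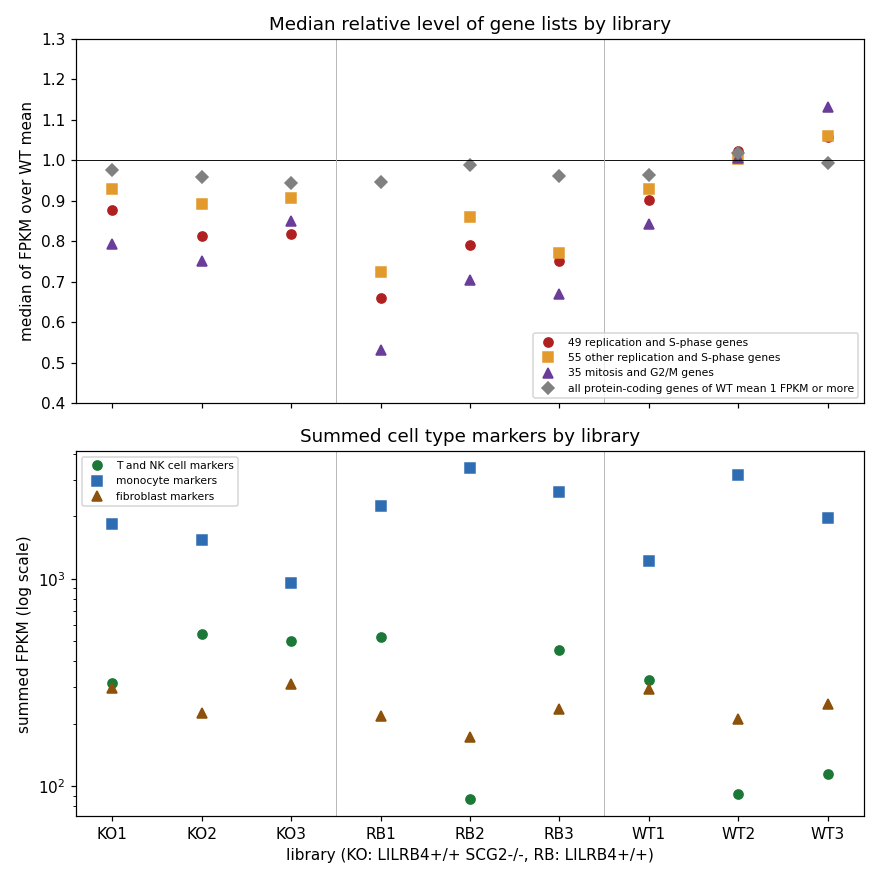
The upper panel shows the median level relative to the WT mean in each of the 9 libraries. It covers the 49 genes, the other replication genes, the mitosis genes and the protein-coding genes of the background. The lower panel shows the summed FPKM of the T and NK cell, monocyte and fibroblast markers on a log scale. The 49 genes lie at 0.812 to 0.877 in SCG2 knockout, 0.659 to 0.790 in LILRB4 and 0.901 to 1.06 in WT libraries, and the background lies between 0.943 and 1.02.

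Licensing factors mark origins before S phase. Cdt1, the MCM loading factor that is degraded once replication starts, had the highest level of the 4. It stood at 27.2, 19.9 and 25.1 FPKM in LILRB4 and 23.9, 24.9 and 23.8 FPKM in WT libraries. The groups overlapped, and the log2 fold change was -0.04 (SE 0.15, edgeR adjusted p = 0.904). The lowest was Cdc6, the ATPase that recruits the MCM ring, at -0.71 (SE 0.19, edgeR adjusted p = 0.0693). Orc6 lay between them at -0.46, and Orc1, tested on recovered counts, at -0.24. For Cdc6 and Orc6 all LILRB4 libraries were below all WT libraries.

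The 6 subunits of the MCM ring, which unwinds DNA ahead of the polymerases, were lower in every LILRB4 library than in any WT library. Mcm5 stood at 25.8, 34.2 and 30.7 FPKM in LILRB4 and 42.0, 52.4 and 57.9 FPKM in WT libraries. It fell by 0.77 on the log2 scale (SE 0.15, edgeR adjusted p = 0.0324). Mcm6, the subunit with the highest level, stood at 33.5, 39.1 and 39.9 FPKM in LILRB4 and 48.0, 47.6 and 52.8 FPKM in WT libraries. Its groups did not overlap, but it did not pass the test (log2 fold change -0.43, SE 0.14, edgeR adjusted p = 0.106). Over the 6 genes the log2 fold changes ran from -0.77 for Mcm5 to -0.39 for Mcm4, with a median of -0.48. These subunits form 1 complex with 1 copy of each, and their mRNA levels differed, from 14.1 FPKM for Mcm2 to 44.3 FPKM for Mcm6 over all libraries.

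Of the 8 genes that activate the helicase, 6 were in the count table and 0 of these passed the test. Gins4, a subunit of the GINS complex that joins the MCM ring to Cdc45, had the highest level, at 15.0, 16.1 and 16.9 FPKM in LILRB4 and 18.8, 21.8 and 18.4 FPKM in WT libraries. The groups did not overlap (log2 fold change -0.33, SE 0.14, edgeR adjusted p = 0.201). The lowest of the role was Gins3 at -0.89 on recovered counts (SE 0.24, edgeR adjusted p = 0.0982), and the highest was Dbf4 at -0.08. Cdc45 came nearest to the threshold, at -0.62 (SE 0.15, edgeR adjusted p = 0.0562). All LILRB4 libraries were below all WT libraries for 7 of the 8, the exception being Dbf4.

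Of the 9 polymerase and primase genes, 0 passed the test. Pold2, the accessory subunit of polymerase delta, had the highest level, at 16.4, 24.5 and 22.5 FPKM in LILRB4 and 22.3, 35.3 and 32.0 FPKM in WT libraries. Its groups overlapped (log2 fold change -0.52, SE 0.21, edgeR adjusted p = 0.174). Pole2, a subunit of the leading strand polymerase epsilon, was the lowest at -0.64 (SE 0.18, edgeR adjusted p = 0.0788). Pold3, another subunit of polymerase delta, was the highest of all 49 genes at -0.01 (SE 0.14, edgeR adjusted p = 0.960), and at 0.0032 on recovered counts. The groups did not overlap for Pold1, Pole2 and Prim2, and they overlapped for the other 6.

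The clamp, its loader and the single-strand binding protein RPA gave the median closest to 0 of the roles with more than 1 tested gene, at -0.37. Pcna stood at 110, 116 and 124 FPKM in LILRB4 and 136, 161 and 146 FPKM in WT libraries. The groups did not overlap (log2 fold change -0.37, SE 0.13, edgeR adjusted p = 0.143). The clamp loader subunits covered the range of the role, from -0.73 for Rfc4 (SE 0.18, edgeR adjusted p = 0.0579) to -0.20 for Rfc1. Rfc1 and Rfc2 were the 2 of these 8 genes whose groups overlapped.

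Lagging strand maturation had 2 genes. Lig1, the ligase that joins Okazaki fragments, stood at 14.9, 17.2 and 18.1 FPKM in LILRB4 and 21.5, 18.8 and 21.7 FPKM in WT libraries. The groups did not overlap (log2 fold change -0.34, SE 0.17, edgeR adjusted p = 0.272). Fen1, with 26 to 77 recovered counts per library, was at -0.07 on recovered counts with a standard error of 0.37.

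Nucleotide supply was the role with the lowest median, at -0.67 over 5 tested genes, and all 5 were lower in every LILRB4 library than in any WT library. Rrm2, the S-phase subunit of ribonucleotide reductase, which makes deoxynucleotides, stood at 13.0, 17.9 and 15.4 FPKM in LILRB4 and 22.7, 27.0 and 25.6 FPKM in WT libraries. It fell by 0.73 (SE 0.14, edgeR adjusted p = 0.0327). Dut, which removes dUTP from the nucleotide pool, had the highest level, at 16.9, 23.5 and 28.3 FPKM in LILRB4 and 29.9, 45.1 and 36.6 FPKM in WT libraries. Its log2 fold change of -0.72 was nearly that of Rrm2, but its spread was wider (SE 0.24, edgeR adjusted p = 0.118). Rrm1, the large subunit of the same reductase, was at -0.67 (SE 0.16, edgeR adjusted p = 0.0555), and Tyms, which makes thymidylate, was the highest at -0.50.

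Chromatin factors gave 1 call among 3 genes. Uhrf1, which brings the maintenance DNA methyltransferase to newly copied DNA, stood at 18.1, 26.4 and 19.4 FPKM in LILRB4 and 29.9, 33.5 and 42.0 FPKM in WT libraries. All LILRB4 libraries were below all WT libraries, and it fell by 0.75 (SE 0.17, edgeR adjusted p = 0.0476). Chaf1a and Chaf1b, the large and middle subunits of the histone chaperone CAF-1, were at -0.41 and -0.30, and their groups overlapped.

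The G1/S genes held the lowest log2 fold change of the 49. Tcf19, a gene that is induced at the G1/S boundary, stood at 8.37, 11.98 and 11.4 FPKM in LILRB4 and 16.1, 22.7 and 20.5 FPKM in WT libraries. It fell by 0.93 (SE 0.18, edgeR adjusted p = 0.0344), which is 0.526 times the WT level. E2f1, an activating E2F factor and itself an E2F target, had the highest level of the role, at 11.3, 13.4 and 13.1 FPKM in LILRB4 and 13.4, 16.3 and 18.1 FPKM in WT libraries. LILRB4 replicate 2 and WT replicate 1 nearly met, and the log2 fold change was -0.37 (SE 0.16, edgeR adjusted p = 0.198). Ccne1 and Ccne2, the cyclins E that drive entry into S phase, were at -0.69 and -0.60 on recovered counts, with edgeR adjusted p of 0.139 and 0.256.

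**Figure D5:**
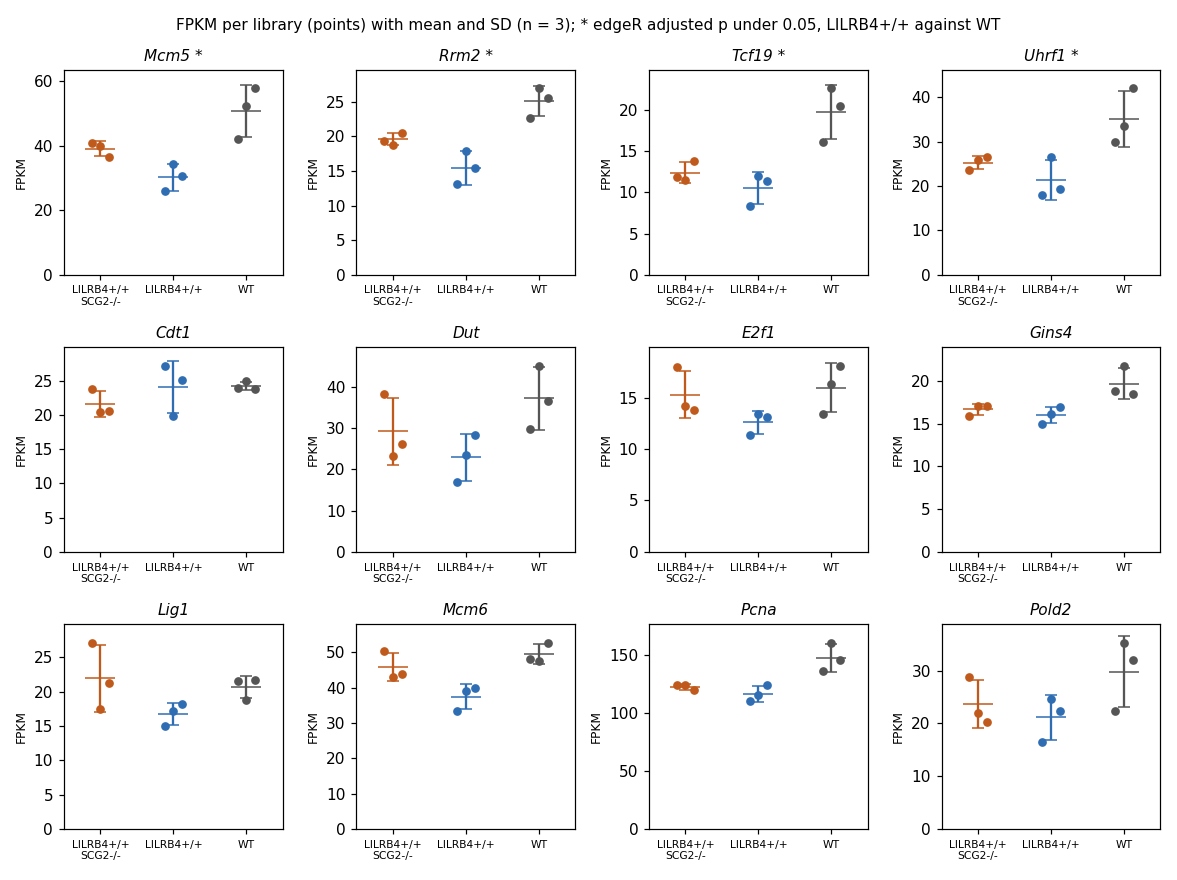
FPKM of 12 genes in each library (points) with the group mean and SD, SCG2 knockout, LILRB4 and WT from left to right. Shown are the 4 genes that passed the test in LILRB4 against WT and the gene with the highest level in each role. For Mcm5 the LILRB4 libraries lie at 25.8 to 34.2 FPKM and the WT libraries at 42.0 to 57.9 FPKM.

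These calls rested on few libraries. Leaving out LILRB4 replicate 2, which had the fewest T and NK cell transcripts, gave 7 calls among the genes, and leaving out SCG2 knockout replicate 1 or 3 gave 3. Leaving out SCG2 knockout replicate 2, LILRB4 replicate 1, LILRB4 replicate 3 or any WT library gave 0. Mcm5, Rrm2, Tcf19 and Uhrf1 stayed below 0 in all 28 alternatives computed, between -1.04 and -0.59 on the log2 scale. The first 3 passed the test in 8 of these alternatives and Uhrf1 in 4. The fit without a count filter, among the 28, tested the same genes as the main fit and so repeated its result.

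Related gene lists were set beside the 49 genes to show where the difference ran further. Of 53 tested genes among 55 other replication genes, 0 passed the test, 46 were below 0 and the median was -0.39 (smallest edgeR adjusted p = 0.0597, for the histone chaperone Asf1b). Of 35 mitosis genes, 9 fell and 0 rose, 34 were below 0 and the median was -0.66. The 9 were Ube2c (-1.02), Nusap1 (-0.92), Aurka (-0.91), Kif2c (-0.87), Ccna2 (-0.83), Plk1 (-0.79), Bub1 (-0.79), Anln (-0.72) and Prc1 (-0.70). Of these, Aurka and Ccna2 also passed on recovered counts. Mki67, the gene of the proliferation antigen Ki-67, did not pass the test and stood at 17.1, 19.2 and 15.5 FPKM in LILRB4 and 18.1, 11.7 and 24.2 FPKM in WT libraries (log2 fold change -0.09, SE 0.25, edgeR adjusted p = 0.853). Top2a, the topoisomerase of S, G2 and M phase, was at -0.55 (SE 0.19, edgeR adjusted p = 0.130).

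Of 7 tested genes among 10 inhibitors of cyclin-dependent kinases and D cyclins, 4 were below 0, 1 fell and 0 rose. Cdkn2c, which encodes the kinase inhibitor p18, fell by 0.94 (SE 0.16, edgeR adjusted p = 0.0233), and it also passed on recovered counts (edgeR adjusted p = 0.0313). Cdkn1a, which encodes the inhibitor p21, was at 0.10 (SE 0.26, edgeR adjusted p = 0.836).

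The second question was whether these levels differ once SCG2 is lost in LILRB4+/+ mice. The median of the replication genes stood between the LILRB4 and WT medians in the knockout libraries, and no single gene passed the test. The mean FPKM in the knockout was below that in LILRB4 for 5 of the 49 genes, Cdt1 and Fen1 among them, and below that in WT for 44 of the 49, with Cdc7 and Lig1 among the 5 that were above. The median level relative to WT was 0.877, 0.812 and 0.817 in SCG2 knockout replicates 1 to 3, against 0.659, 0.790 and 0.752 in LILRB4. The groups did not overlap, and SCG2 knockout replicate 2 was nearest to LILRB4 replicate 2. The comparison uses the same LILRB4 libraries as the one with WT, so the values of the 2 comparisons are not independent.

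On the deposited counts 0 of 43 genes passed edgeR's quasi-likelihood test, as did 0 of 9877 genes (0.0% higher and 0.0% lower). DESeq2 called 0 of the 43 as well, with 0.122% of all genes higher and 1.77% lower. With no adjustment, 13 of the 43 were higher at p under 0.05 in edgeR and 0 lower, against 4.88% higher and 6.18% lower among all genes. This number depended on the setting and on single libraries. It was 7 with DESeq2 and 15 without LILRB4 replicate 2. Without SCG2 knockout replicate 1 it was 2 of 43, against 387 of 9877 genes. Without LILRB4 replicate 1 it was 1 of 43, against 242 of 9877 genes. Of the 43 log2 fold changes, 40 were above 0 and the median was 0.26, against 0.03 over all genes, of which 44.4% were below 0. On recovered counts 5 of 49 were below 0, against 47.0% of all genes, and the median was 0.23. Of the 49, 6 were higher at an unadjusted p under 0.05 there and 0 lower, against 3.28% and 5.44% of all genes. All SCG2 knockout libraries were above all LILRB4 libraries for 13 of the 49 genes, against 6.7% of protein-coding genes, and below them for 1, Fen1, against 10.3%.

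The highest value was that of Cdc7, the kinase that fires origins, at 4.80, 5.30 and 6.45 FPKM in SCG2 knockout and 3.36, 3.09 and 3.68 FPKM in LILRB4 libraries. The groups did not overlap, and the log2 fold change was 0.77 (SE 0.20, edgeR adjusted p = 0.256). The lowest among the 43 was Cdt1, at 23.8, 20.4 and 20.6 FPKM in SCG2 knockout and 27.2, 19.9 and 25.1 FPKM in LILRB4 libraries. Its groups overlapped (log2 fold change -0.10, SE 0.15, edgeR adjusted p = 0.852). Fen1 was at -0.46 on recovered counts with a standard error of 0.38.

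All 6 MCM subunits were above 0, between 0.26 for Mcm4 and 0.43 for Mcm5. Mcm5 stood at 40.9, 40.1 and 36.4 FPKM in SCG2 knockout, above its 25.8, 34.2 and 30.7 FPKM in LILRB4 libraries (log2 fold change 0.43, SE 0.15, edgeR adjusted p = 0.359). Mcm6 stood at 50.4, 43.1 and 43.9 FPKM in SCG2 knockout, against 33.5, 39.1 and 39.9 FPKM in LILRB4 (log2 fold change 0.35, SE 0.14, edgeR adjusted p = 0.392). For Mcm2, Mcm4, Mcm5 and Mcm6 the groups did not overlap, and for Mcm3 and Mcm7 they did.

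Rrm2 stood at 19.4, 18.8 and 20.5 FPKM in SCG2 knockout and 13.0, 17.9 and 15.4 FPKM in LILRB4 libraries, without overlap (log2 fold change 0.40, SE 0.14, edgeR adjusted p = 0.365). Tcf19 stood at 11.8, 11.5 and 13.8 FPKM in SCG2 knockout and 8.37, 11.98 and 11.4 FPKM in LILRB4. Uhrf1 stood at 23.6, 25.8 and 26.5 FPKM in SCG2 knockout and 18.1, 26.4 and 19.4 FPKM in LILRB4. Both overlapped, since LILRB4 replicate 2 reached the knockout range. Pcna stood at 125, 124 and 120 FPKM in SCG2 knockout and 110, 116 and 124 FPKM in LILRB4, also with overlap. E2f1 stood at 17.9, 14.2 and 13.8 FPKM in SCG2 knockout and 11.3, 13.4 and 13.1 FPKM in LILRB4, without overlap (log2 fold change 0.34, SE 0.16, edgeR adjusted p = 0.461).

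SCG2 knockout replicate 1 stood apart within its group for several genes. Dut stood at 38.3, 23.1 and 26.1 FPKM, Lig1 at 27.1, 17.4 and 21.2 FPKM and Pold2 at 28.9, 21.99 and 20.3 FPKM in SCG2 knockout libraries. In LILRB4 libraries Dut stood at 16.9, 23.5 and 28.3 FPKM, Lig1 at 14.9, 17.2 and 18.1 FPKM and Pold2 at 16.4, 24.5 and 22.5 FPKM. For each of these 3 genes, SCG2 knockout replicate 1 was the highest of its group and LILRB4 replicate 1 the lowest of its own. Gins4, at 15.9, 17.0 and 17.0 FPKM in SCG2 knockout and 15.0, 16.1 and 16.9 FPKM in LILRB4, was even across both groups. T and NK cell sums, at 313, 541 and 503 FPKM in SCG2 knockout, lay within the LILRB4 range of 86.6 to 525 FPKM except for replicate 2. Monocyte sums of 1830, 1535 and 949 FPKM in SCG2 knockout lay below all LILRB4 sums of 2252, 3412 and 2608 FPKM. Cd14 was a large part of these monocyte sums, and a sum of FPKM does not count cells. Neutrophil sums of 37.3, 26.2 and 22.5 FPKM in SCG2 knockout also lay below all LILRB4 sums of 59.7, 201 and 85.9 FPKM. The other 8 of the 10 marker lists overlapped, and the part of these cells in the result was not tested.

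Of the 35 mitosis genes, 35 were above 0 in SCG2 knockout against LILRB4, with a median of 0.37, and 0 passed the test. Of the 53 other replication genes, 44 were above 0, with a median of 0.25 and 0 calls.

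SCG2 knockout against WT compares mice that differ in both genotypes. The replication genes stood lower in the knockout, with medians relative to the WT mean of 0.877, 0.812 and 0.817 in SCG2 knockout and 0.901, 1.02 and 1.06 in WT libraries, which did not overlap. On the deposited counts 0 of 43 genes passed edgeR's quasi-likelihood test, as did 0 of 9877 genes (0.0% lower), and DESeq2 called 0 of the 43, against 0.233% of all genes lower and 0.699% higher. With no adjustment, 9 of the 43 were lower at p under 0.05 in edgeR and 0 higher, against 6.11% lower and 8.47% higher among all genes. Of the 43 log2 fold changes, 37 were below 0 (49.6% over all genes), and the median was -0.21. On recovered counts 44 of 49 were below 0 (49.7% over all genes), with a median of -0.24. All SCG2 knockout libraries were below all WT libraries for 20 of the 49 genes, against 12.3% of protein-coding genes, and above them for 0, against 11.0%.

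Of the 10 marker lists, 2 did not overlap in this comparison. The 6 dendritic cell markers summed to 94.2, 153 and 93.1 FPKM in SCG2 knockout and 79.3, 43.3 and 49.3 FPKM in WT libraries. Most of this was Ccr7, at 81.1, 140.1 and 82.2 FPKM in SCG2 knockout and 68.6, 39.6 and 44.0 FPKM in WT, while Clec9a stayed below 1 FPKM. The 6 endothelial markers summed to 9.12, 10.5 and 10.1 FPKM in SCG2 knockout and 7.56, 5.41 and 6.32 FPKM in WT libraries. The part of these cells was not tested.

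Gins2, a GINS subunit whose exonic bases partly overlap those of Gse1, was the lowest (log2 fold change -0.68, SE 0.25, edgeR adjusted p = 0.317). It stood at 5.06, 3.63 and 3.21 FPKM in SCG2 knockout and 5.10, 7.77 and 6.61 FPKM in WT libraries. Cdc7 was the highest, at 4.80, 5.30 and 6.45 FPKM in SCG2 knockout and 5.52, 3.80 and 3.94 FPKM in WT (log2 fold change 0.35, SE 0.20, edgeR adjusted p = 0.415). Tcf19, at 11.8, 11.5 and 13.8 FPKM in SCG2 knockout, lay below all WT libraries at 16.1, 22.7 and 20.5 FPKM (log2 fold change -0.64, SE 0.18, edgeR adjusted p = 0.317). Mcm5, Rrm2 and Uhrf1 also lay below all WT libraries, at log2 fold changes of -0.35, -0.33 and -0.44, with edgeR adjusted p from 0.330 to 0.335. Mcm6, Lig1 and E2f1 overlapped with WT, at -0.08, 0.11 and -0.03.

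Changes of genes with and without the E2F letters were set side by side. On recovered counts, the 12 genes with E2F letters had a median log2 fold change of -0.47 in LILRB4 against WT and the 29 genes whose windows held none had -0.40. In SCG2 knockout against LILRB4 the medians were 0.30 and 0.22, and in SCG2 knockout against WT they were -0.17 and -0.25. These are descriptions, with no test, and a window without the letters is not shown to lack an E2F site.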

How the data were processed

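Poly-A RNA of sorted M-MDSCs was sequenced in 9 strand-specific libraries, 3 per group, per the labels' protocols. HISAT2 2.0.5 and featureCounts 1.5.0-p3 are named in the submitters' processing notes. For the genome build, annotation release and strand setting, nothing is given in the sources used. Start and end in the tables equalled those of GRCm38 (GENCODE) for 98.3% of identifiers and for 48 of the 49 genes.

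The authors deposited raw counts for 9877 genes, and FPKM and gene lengths for 54532. The deposited FPKM values, times gene length and 1 constant per library, were whole within 0.01 for 100% of values, and are called recovered counts (15004944 to 28070495 per library). The count table and the recovered counts differed for 56 values in 47 genes, which held 0 of the 49. The count table held protein-coding genes, and all 9876 with 100 or more recovered counts in both LILRB4 replicate 1 and LILRB4 replicate 3 were in it. It therefore left out 6 of the 49 genes (Ccne1, Ccne2, Fen1, Gins1, Gins3 and Orc1), each under this level in LILRB4 replicate 1, where they had 36 to 99 recovered counts. The filter rests on the LILRB4 libraries, so counts of calls on the deposited table do not cover genes that are low there.

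Deposited counts were tested with edgeR 4.0.16 in R 4.3.3 (TMM scaling, filterByExpr with a minimum count of 10, robust quasi-likelihood fit to all 9 libraries, 6 residual degrees of freedom, Benjamini-Hochberg adjustment, threshold 0.05), after the script had been tested on simulated data. Alternatives were recovered counts (15743 genes tested), DESeq2 1.42.0, limma 3.58.1 on log2(FPKM + 1) and log2(FPKM + 0.1) for genes with a mean of 1 FPKM or more or without that filter, other size factors, no count filter, fits to 2 groups, a replicate block and leaving out each library. Levels are FPKM as deposited. Values per library are given for genes past the threshold and for the gene with the highest mean FPKM in each role; the lowest and highest log2 fold change are named. Genes named beyond this rule were chosen after their values were seen. The 49 genes and all lists were chosen with earlier results of these data known. Promoters are from RefSeq.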

Additional observations from a re-analysis of the deposited data

How the results depend on the processing

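Medians of the log2 fold changes kept their direction in every alternative computed. Leaving out each library in turn, with deposited or recovered counts, gave medians of -0.53 to -0.36 in LILRB4 against WT, 0.14 to 0.32 in SCG2 knockout against LILRB4 and -0.29 to -0.17 in SCG2 knockout against WT. Counts of calls were less stable. In LILRB4 against WT, 0 to 7 of the genes and 0 to 689 of all genes passed with a library left out, 0 to 2 of all genes did so in SCG2 knockout against LILRB4, and 0 to 3 in SCG2 knockout against WT. No gene of the 49 passed in either SCG2 knockout comparison, where the counts with a library left out were 0 throughout. For LILRB4 against WT, the main count of 4 of the genes and 222 of all genes became 15 and 924 with DESeq2, 0 and 137 with recovered counts (3 and 212 with recovered counts of the genes of the count table alone), 0 and 72 with 2 groups only, 0 and 87 with limma at a pseudocount of 1, 0 and 83 at 0.1, and 0 and 8 without the FPKM filter. All genes called became 187 (DESeq2) and 5 (limma without filter) in SCG2 knockout against LILRB4, and 92 and 2 in SCG2 knockout against WT. With recovered counts, the lower count went with the larger number of genes tested. The cause of this and of the other differences was not tested. With size factors in place of TMM, 3 of the genes and 225 of all genes passed. A fit with the replicate number as a block gave 0 of the genes and 1 of all genes in LILRB4 against WT. The numbers share no stated source. Each library's deviations from its group mean were correlated between groups. For same-numbered libraries the correlations ran from -0.54 to 0.66, and for differently numbered ones from -0.71 to 0.52. Of the genes with values per library, 3 changed sign when a library was left out: Lig1 in SCG2 knockout against WT (-0.094 to 0.26), E2f1 in the same comparison (-0.19 to 0.060) and Cdt1 in LILRB4 against WT (-0.11 to 0.099). Recovered counts of 26 to 9289 per gene and library limit the precision most for Fen1.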
